A study of Mus musculus with 12 samples.

Results

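Pkd1, Pkd2, Pkhd1, Bicc1, Nek8 and Invs, genes whose mutation gives cystic kidneys and, in several cases, cystic or fibrotic bile ducts, were followed through the conversion of hepatocytes toward biliary cells in mouse liver. They were taken by gene symbol from the count table, where 6 of 6 were found among 53599 genes, and 6 of 6 passed the filter on low counts that left 16210 genes for testing. The mice were labelled WT and received AAV8-TBG-Cre, a virus that carries Cre under a hepatocyte promoter, so that the hepatocytes it reached and their progeny carry EGFP; the reporter allele and the age of the mice are not given in the sources used here. From 1 week later all mice ate 0.1% DDC, a compound that injures bile ducts, for 8 weeks, and no group without DDC was compared. Sorted EGFP+ cells formed the early group (Cd24- Epcam-), the intermediate group (Cd24+ Epcam-) and the full group (Cd24+ Epcam+), and EGFP- Epcam+ cells, the resident biliary epithelial cells, formed the BEC group, with 3 libraries each. Whether replicates came from separate animals is not said in the labels, so p-values measure the spread between these libraries.

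Pkd1 encodes polycystin-1, a large receptor-like membrane protein, and Pkd2 encodes polycystin-2, a cation channel of the TRP family. The pair form a complex at the primary cilium, the single sensory antenna that bile duct cells carry into the lumen and that hepatocytes lack. Pkhd1 encodes fibrocystin, a membrane protein of the same cilium whose loss causes autosomal recessive polycystic kidney disease and congenital hepatic fibrosis. Bicc1 encodes an RNA-binding protein with KH and SAM domains. Invs encodes inversin, an ankyrin repeat protein that organises a segment at the base of the cilium, and Nek8 encodes a kinase that resides in that segment.

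Promoter windows from RefSeq, spanning 250 bases before to 50 after the annotated start (build GRCm38.p6), were found for 5 of the 6 members: Pkd1, Pkd2, Pkhd1, Nek8 and Invs. The windows of 3 of them are printed because they belong to the member that changed most between the end groups, to a member that rose at both steps and to the member that was not called. Each is written 5′ to 3′ along the strand of the gene. Capitals mark CG dinucleotides, the sites of DNA methylation in mammals, which are dense in the promoters of many broadly expressed genes.
Pkhd1 (chr1:20618008-20618307, minus strand): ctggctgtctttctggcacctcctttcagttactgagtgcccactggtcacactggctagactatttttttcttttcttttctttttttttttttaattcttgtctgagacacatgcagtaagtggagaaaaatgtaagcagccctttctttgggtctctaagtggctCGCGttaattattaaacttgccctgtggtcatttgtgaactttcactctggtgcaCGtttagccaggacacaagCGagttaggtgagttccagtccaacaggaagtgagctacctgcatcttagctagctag
Pkd2 (chr5:104459207-104459506, plus strand): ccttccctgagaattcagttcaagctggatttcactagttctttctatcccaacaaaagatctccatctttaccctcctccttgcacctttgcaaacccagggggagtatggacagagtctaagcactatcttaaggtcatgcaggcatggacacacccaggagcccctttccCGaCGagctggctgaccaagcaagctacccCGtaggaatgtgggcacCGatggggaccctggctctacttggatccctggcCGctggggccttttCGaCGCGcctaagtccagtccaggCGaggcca
Invs (chr4:48279510-48279809, plus strand): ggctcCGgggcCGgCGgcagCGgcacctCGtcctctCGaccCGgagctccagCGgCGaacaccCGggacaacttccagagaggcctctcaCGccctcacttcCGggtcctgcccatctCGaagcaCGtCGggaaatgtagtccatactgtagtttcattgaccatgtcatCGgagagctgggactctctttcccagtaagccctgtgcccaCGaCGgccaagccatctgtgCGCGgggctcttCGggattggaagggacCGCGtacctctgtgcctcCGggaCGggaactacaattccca
The Pkhd1 window had 43.3% G and C with 4 CG dinucleotides, against 63.0% with 25 in Invs and 55.3% with 9 in Pkd2. Of the windows not printed, Nek8 had 57.7% with 25 and Pkd1 66.7% with 18, so members that rose were found at both ends of this range. The median of 32851 RefSeq promoter windows of the same length was 7 CG dinucleotides. These counts describe the letters of the windows, and methylation was not measured here.

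Total counts ran from 15112893 to 19731887 per library, and the members had between 213 and 20183 counts in any library. Levels are given in CPM, a count relative to the library size after scaling by TMM, a method that centres the bulk of the genes between libraries. The early libraries had the 3 lowest factors (0.652 to 0.672, against 1.03 to 1.22 in the others). Mitochondrial genes took 5.45% to 11.4% of the counts in early, with replicate 2 the highest, 3.99% to 4.75% in intermediate, 2.20% to 2.48% in full and 2.58% to 3.43% in BEC. The 50 most abundant genes took 31.2% to 35.9% in early, 20.9% to 21.6% in intermediate and 14.9% to 16.8% in full and BEC. The part of these shares in the group differences was not tested. Under scaling by total counts alone, all genes had a median change of 0.72 instead of 0.06 (log2) for intermediate against early and 0.21 instead of 0.01 for full against intermediate, and 85.6% instead of 52.8% and 72.6% instead of 51.2% of the calls were higher. Directions are therefore given on the TMM scale. Of the sort markers, Epcam had 4 to 9 counts in early libraries, 219 to 424 in the intermediate group, sorted as Epcam-, 4740 to 6648 in full and 17564 to 19461 in BEC, and Cd24a had 16 to 61 in early and 6380 to 8413 in intermediate. Replicates shared a number across groups, and libraries of the same number deviated together at each of the 3 successive steps, so values with the number as a block are given where they change a call.

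Of the 6 genes, 5 rose from early to intermediate cells, 4 rose again from intermediate to full, and 1, Nek8, was called between full and BEC, where it was lower in BEC (edgeR's quasi-likelihood test, Benjamini-Hochberg adjusted p under 0.05 over all genes tested). With the replicate number as a block, with no filter on low counts or with the 6 libraries of those groups alone, 3 were called between full and BEC: Nek8 and Pkd1 lower and Pkhd1 higher in BEC. Bicc1 rose 7.11-fold and Pkhd1 5.36-fold at the first step, followed by Pkd2 (3.00-fold), Nek8 (2.65-fold) and Pkd1 (1.53-fold). Invs was called at no step. Of all genes tested, 54.4% were called at the first step (28.7% higher, 25.7% lower), 40.7% at the second (20.8% higher, 19.8% lower) and 21.3% between BEC and full (10.7% higher, 10.6% lower). Groups did not overlap for 5, 4 and 5 of the members at these steps, and for 58.7%, 55% and 39.6% of all genes.

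Against early, 5 members were called higher in full, where 71.2% of all genes were called (39.1% higher, 32.1% lower), and 5 in BEC, where 73.1% were (40% higher, 33% lower). The groups did not overlap for 5 members in each of these, and for 74.4% and 74.7% of all genes. On total counts 81.8% instead of 54.9% and 80.3% instead of 54.8% of those calls were higher. Between BEC and intermediate, 2 members were called higher and 1 lower, where 52.4% of all genes were called (26.3% higher, 26.2% lower; 66.5% of the calls higher on total counts instead of 50.1%), and the groups did not overlap for 4 members and for 61% of all genes. Comparisons that share a group share its libraries. The median log2 fold change of the 6 members was 1.50, 0.38 and -0.22 at the 3 steps, against 0.06, 0.01 and 0.00 for all genes. Over all 4 groups together, 5 of the 6 differed, where 75.6% of all genes did. In bulk RNA, more cells that express a gene and more RNA of it per cell cannot be told apart.

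**Figure D1:**
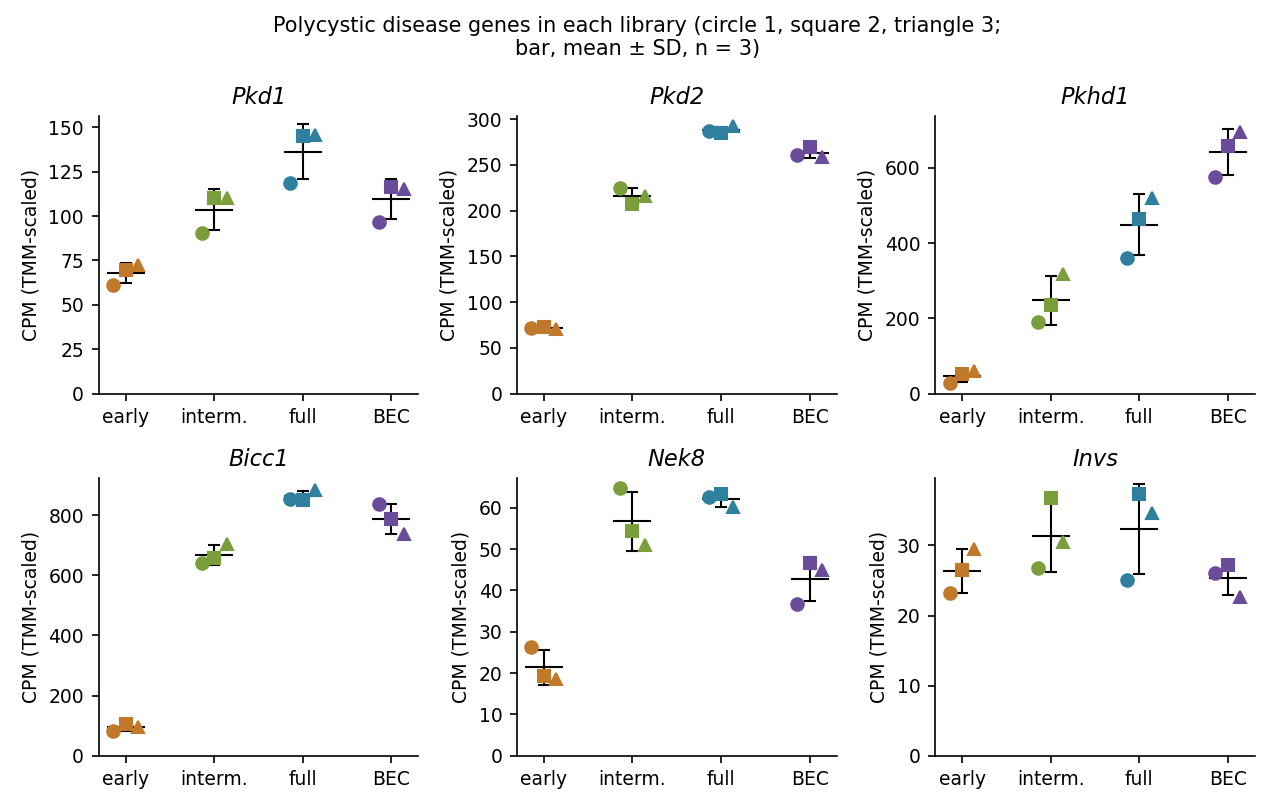
Level of each gene in each of the 12 libraries, in CPM on a linear axis that starts at 0, by group; symbols mark the replicate number and bars the mean ± SD (n = 3). Early libraries lie below all others for the first 5 genes, and the Invs groups overlap.

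**Figure D2:**
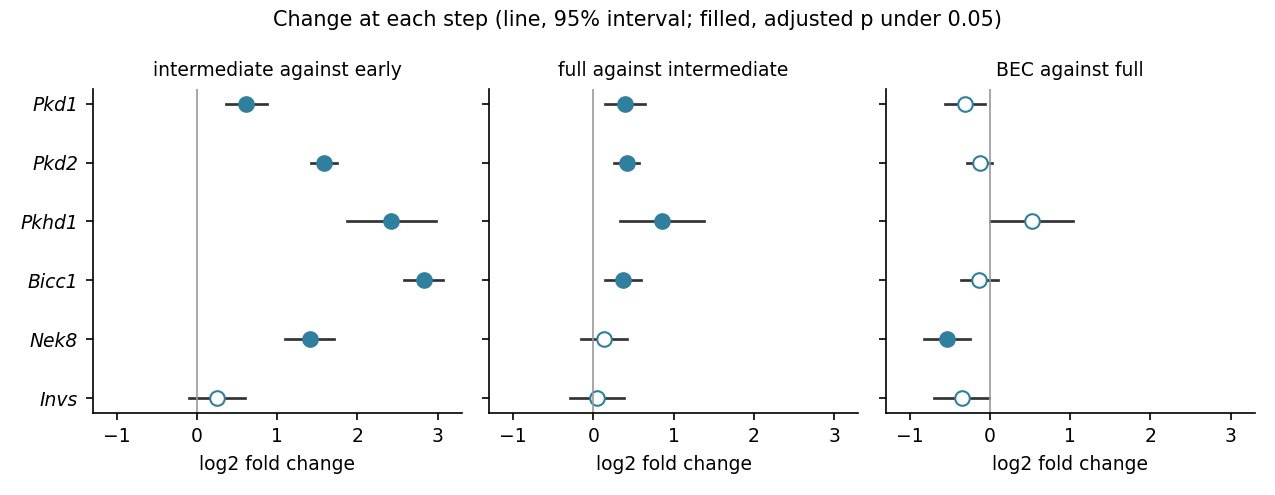
Log2 fold change of each gene at the 3 successive steps, with its 95% interval; filled points have an adjusted p under 0.05 in edgeR's quasi-likelihood test. The first step holds the widest range, from 0.25 for Invs to 2.83 for Bicc1.

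Pkd1, the polycystin receptor, had 61.3, 69.8 and 72.3 CPM in the early libraries, 90.5, 110 and 110 in intermediate, 119, 145 and 146 in full, and 96.4, 116 and 116 in BEC. Early lay below every other library and full above every intermediate one, while intermediate and BEC overlapped. The rise to intermediate was 0.61 on the log2 scale (SE 0.12, edgeR adjusted p 0.000599) and that to full 0.39 (SE 0.12, edgeR adjusted p 0.0152). The second call was lost without intermediate replicate 1 (0.30, edgeR adjusted p 0.0688), without full replicate 2 (0.35, edgeR adjusted p 0.0640), as well as on leaving out full replicate 3 (0.34, edgeR adjusted p 0.0625). BEC against full gave -0.32 (SE 0.12, edgeR adjusted p 0.0729). Blocking on the replicate number brought it past the threshold (-0.32, edgeR adjusted p 0.00316). In the GENCODE M21 annotation (GRCm38), 3.98% of the exon bases of Pkd1 lie on exons of Tsc2 on the opposite strand, and the strand setting of the counting is not given in the sources used here. Tsc2, a growth regulator that is itself a cystic disease gene, stayed between 98.7 and 130 CPM in the 12 libraries and was not called at the 3 steps on the TMM scale. On total counts it was called higher at the first 2 (log2 fold change 0.68 and 0.23).

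Pkd2, the polycystin channel, had 72.0, 72.9 and 70.7 CPM in early, 225, 207 and 216 in intermediate, 287, 284 and 292 in full, and 261, 270 and 259 in BEC. No pair of groups overlapped, and the order was early, intermediate, BEC, full. The first rise was 1.59 (SE 0.08, edgeR adjusted p 2.44e-09) and the second 0.41 (SE 0.07, edgeR adjusted p 0.000511). The drop to BEC was not called (-0.13, SE 0.07, edgeR adjusted p 0.274), with a 95% interval from -0.29 to 0.03. BEC remained higher than intermediate by 0.29 (SE 0.07, edgeR adjusted p 0.00496). Without a filter on low counts this was not called (0.27, edgeR adjusted p 0.0847).

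Because both polycystins sit in 1 complex, the ratio of their counts was compared within libraries, where scaling has no part. Pkd1 counts per Pkd2 count were 0.852, 0.958 and 1.02 in early, 0.402, 0.532 and 0.511 in intermediate, 0.413, 0.509 and 0.498 in full, and 0.370, 0.432 and 0.446 in BEC. Early did not overlap with any other group, and the other groups overlapped with their neighbours. From early to intermediate the mean log2 ratio went from -0.09 ± 0.13 to -1.06 ± 0.22 (SD, n = 3 each, 2-sided exact permutation p 0.1, the smallest that 3 against 3 allows, 0.3 adjusted over the 3 steps). Full differed from intermediate by -0.02 (exact permutation p 0.8) and BEC from full by -0.19 (exact permutation p 0.3). Within replicate numbers, BEC was lower than full in 3 of 3 pairs, with differences of -0.16, -0.24 and -0.16 (2-sided exact sign-flip permutation p 0.25, the smallest that 3 pairs allow), and full against intermediate gave 0.039, -0.063 and -0.038 (exact sign-flip permutation p 0.75). The transcripts differ in length, so the ratio compares libraries and is no stoichiometry.

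**Figure D3:**
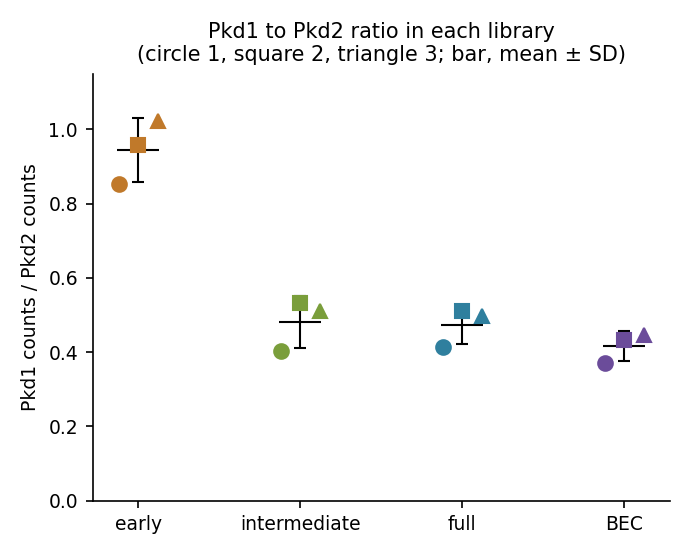
Counts of Pkd1 divided by counts of Pkd2 in each library, by group, on an axis from 0; symbols mark the replicate number and bars the mean ± SD (n = 3). Early libraries sit between 0.852 and 1.02, and the other 9 between 0.370 and 0.532.

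Pkhd1, the fibrocystin gene, had the largest fold change of the 6 between BEC and early. It had 27.7, 52.0 and 58.8 CPM in early, 189, 235 and 318 in intermediate, 361, 464 and 520 in full, and 575, 658 and 694 in BEC. No pair of groups overlapped, and the order followed the sort from early to BEC. The first rise was 2.42 on the log2 scale (SE 0.26, edgeR adjusted p 3.04e-06) and the second 0.86 (SE 0.24, edgeR adjusted p 0.0116). BEC was higher than full by 0.52 without being called (SE 0.24, edgeR adjusted p 0.161), with a 95% interval from 0.00 to 1.04. The same block gave a called rise (0.54, edgeR adjusted p 0.00572). The library numbered 1 was the lowest of its group in 4 of 4 groups for Pkhd1, and likewise for Pkd1. Full against early came to 9.72-fold and BEC against early to 13.9-fold. Of 10 biliary markers, Krt19, Cftr and Sctr had at most 2 counts in the early libraries, in which Pkhd1 had 350 to 727. Krt7 had 3 to 5 counts there, and Epcam, a gate of the sort, 4 to 9. The other 5 were well above the floor, with Spp1 at 868 to 1811 CPM, Anxa4 at a mean of 185, Slc4a2 at 80.8, Sox9 at 43.4 and Tspan8 at 34.8. The summed level of the 10 was 1207 to 2170 CPM in early and 14796 to 18247 in BEC. Their part in the level of Pkhd1 was not tested. An antisense transcript, 4930486I03Rik, covers 1.45% of the exon bases of Pkhd1 and had 0 counts in early and at most 23 in any library.

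Bicc1, the RNA-binding regulator, gave the largest first rise of the 6. It had 80.6, 105 and 96.1 CPM in early, 641, 659 and 705 in intermediate, 854, 852 and 883 in full, and 839, 786 and 738 in BEC. No pair of groups overlapped, and full stood highest. Its log2 fold change was 2.83 at the first step (SE 0.11, edgeR adjusted p 6.87e-10) and 0.37 at the second (SE 0.10, edgeR adjusted p 0.0124). BEC against full was -0.13 (SE 0.10, edgeR adjusted p 0.461), with a 95% interval from -0.36 to 0.09. BEC against intermediate was 0.24 (SE 0.10, edgeR adjusted p 0.0738). Under median-of-ratios factors it passed the threshold (0.29, edgeR adjusted p 0.0333) as it did by DESeq2 (0.29, adjusted p 0.00929), on total counts (0.44, edgeR adjusted p 0.00267) and with the filter set at a mean count of 50 (0.28, edgeR adjusted p 0.0387). An antisense transcript, 4930533K18Rik, covers 4.69% of the exon bases of Bicc1, the largest such share among the members, and had 2 to 6 counts in early libraries and at most 58 in any library.

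Nek8, the kinase of the inversin segment, was highest in the intermediate and full groups and lowest in early. It had 26.3, 19.4 and 18.5 CPM in early, 64.8, 54.5 and 51.1 in intermediate, 62.7, 63.4 and 60.1 in full, and 36.7, 46.5 and 45.0 in BEC. Intermediate and full overlapped, and BEC lay above early and below both. The first rise was 1.41 (SE 0.14, edgeR adjusted p 2.00e-06), the second step gave 0.13 (SE 0.13, edgeR adjusted p 0.480). BEC was lower than full by 1.45-fold (log2 fold change -0.54, SE 0.13, edgeR adjusted p 0.0103). BEC was lower than intermediate as well (-0.41, SE 0.14, edgeR adjusted p 0.0207). That call did not hold on total counts (-0.21, edgeR adjusted p 0.215), nor when intermediate replicate 1 (-0.31, edgeR adjusted p 0.0903) or BEC replicate 1 (-0.31, edgeR adjusted p 0.0843) was left out.

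Invs, the inversin gene itself, had 23.2, 26.5 and 29.5 CPM in early, 26.7, 36.7 and 30.5 in intermediate, 25.1, 37.3 and 34.6 in full, and 26.1, 27.3 and 22.7 in BEC. Neighbouring groups overlapped throughout. The log2 fold change was 0.25 at the first step (95% interval -0.10 to 0.60, edgeR adjusted p 0.216), 0.05 at the second (-0.30 to 0.39, edgeR adjusted p 0.846) and -0.35 between BEC and full (-0.69 to -0.01, edgeR adjusted p 0.150). On total counts Invs was called higher at the first step (0.91, edgeR adjusted p 0.000278), where the median of all genes was 0.72. It was also called higher than early on total counts in full (1.16, edgeR adjusted p 2.09e-05) and in BEC (0.81, edgeR adjusted p 0.000516), against 0.29 and -0.06 with TMM. Without full replicate 1, full was called higher than early (0.45, edgeR adjusted p 0.0167) and BEC lower than full (-0.51, edgeR adjusted p 0.0315). Exons of Tex10 on the opposite strand cover 1.98% of the exon bases of Invs. Tex10 had a mean of 15.0 CPM in early, 23.0 in intermediate, 22.6 in full and 25.0 in BEC, and its part in the counts of Invs was not tested.

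Between genes, levels were compared per kilobase of exon, with the joined exon length of GENCODE M21. In early cells Bicc1 was highest at 12.6 CPM per kilobase, followed by Pkd2 at 7.07, Nek8 at 4.10, Pkd1 at 3.89, Pkhd1 at 3.23 and Invs at 2.31. The last 4 overlapped with their neighbours in that order. In BEC the order was Bicc1 at 106 CPM per kilobase, Pkhd1 at 44.9, Pkd2 at 25.9, Nek8 at 8.18, Pkd1 at 6.29 and Invs at 2.22, and no neighbours overlapped. Pkhd1 thus stood next after Bicc1 in BEC and next to last in early, and the other 5 kept their order among themselves. In intermediate and in full, Pkhd1 and Pkd2 overlapped.

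**Figure D4:**
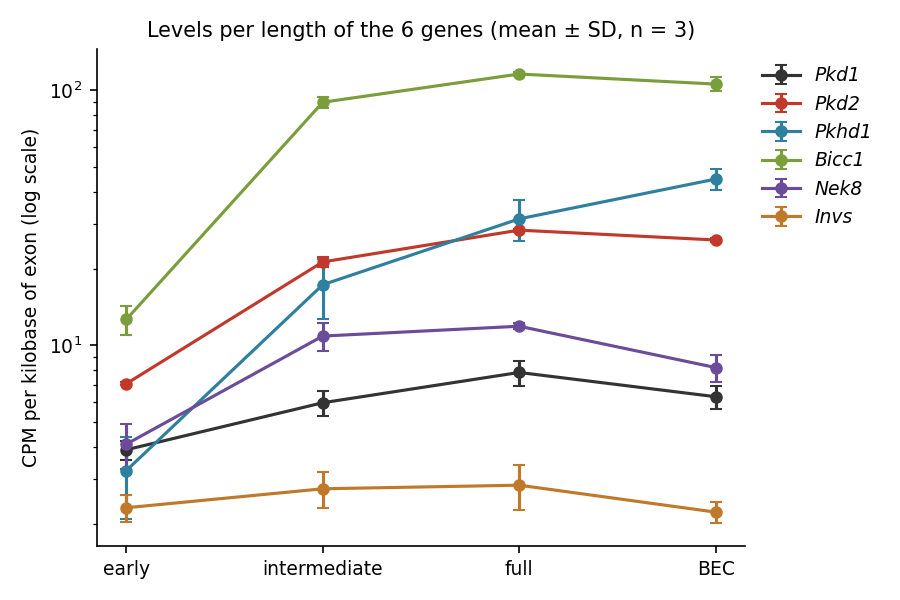
Mean level per kilobase of exon in each group on a log axis, with SD (n = 3). Bicc1 is highest in all 4 groups, Invs lowest, and Pkhd1 passes Pkd1, Nek8 and Pkd2 between early (3.23) and BEC (44.9).

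The place of the middle groups between early and BEC was described for the members called and changed at least 2-fold between BEC and early. The groups are sort gates after the same 8 weeks of DDC, and BEC are resident cells, so a share measures no time. Called members under the 2-fold cut were Nek8, with a log2 fold change of 0.996 for BEC against early, and Pkd1, with 0.69. Nek8 fell just short of the cut, and its change from early to intermediate (1.41) was larger than that to BEC. In intermediate cells the share of the log2 change from early to BEC was 0.923 ± 0.023 for Bicc1, 0.847 ± 0.032 for Pkd2 and 0.636 ± 0.098 for Pkhd1 (SD, n = 3). In full cells the shares were 1.04 ± 0.009 for Bicc1, 1.07 ± 0.011 for Pkd2 and 0.863 ± 0.070 for Pkhd1. Full libraries thus lay past the BEC mean for Bicc1 and Pkd2 and short of it for Pkhd1. The early and BEC libraries enter each share, and the differences between genes were not tested.

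The genes whose log2 CPM followed a member most closely over the 12 libraries were named as a description, among 13778 genes with a mean of at least 1 CPM. For Pkhd1 these were Ift80 (Pearson r 0.997), a component of intraflagellar transport that builds cilia, Wdpcp (0.996), a planar polarity effector at the ciliary base, and Rnf216 (0.996). For Pkd1 they were Ppm1l (0.990), Pot1b (0.977) and Rfx3 (0.976), a transcription factor of ciliary genes. Pkd2 was closest to Zfp618 (0.999), Brsk1 (0.998) and Agrn (0.997), and Bicc1 to Flna (0.997), Zfp266 (0.997) and Pak3 (0.997). Nek8 was closest to Zfp516 (0.987), Tubb5 (0.983) and Slc25a4 (0.980). Invs had no such close companion, with Ube2q2 first at 0.881. The 12 points form 4 groups and share their libraries, so a high r can come from the group means alone. Differences between replicates enter it too, and the part of each was not tested. Among the members, Pkd2 and Bicc1 were the most alike pair (0.993), and Invs had between 0.223 and 0.522 with the others.

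Other genes of the same diseases were taken from lists of cystic disease genes. Of 7 ciliary partners of inversin and Bicc1, 6 rose at the first step and 0 fell (list median 1.05, or 0.77 with a gene at the detection floor set to its bound), 3 rose at the second (5 on total counts) and 3 between full and BEC. Of all genes, 28.7%, 20.8% and 10.7% were called higher at these steps. Nphp4, a transition zone protein, had 0 counts in the early libraries and 15.7 ± 1.94 CPM in BEC (SD, n = 3), at least 62.7-fold higher against a floor of 3 counts per library. Its call at the first step rests on at most 10 counts in an intermediate library, with 0 CPM in replicate 3. Against the floor that rise is at least 1.06-fold. Rpgrip1l, which anchors that zone, went from 8.59 ± 3.04 to 41.7 ± 2.85 CPM (SD, n = 3). Anks6, which links Nek8 to inversin, rose by 0.77 at the first step (edgeR adjusted p 0.0115; named after its value was seen).

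Of 22 tested nephronophthisis and Meckel genes, many of which encode proteins of the ciliary base or of intraflagellar transport, 20 rose and 0 fell at the first step (median 0.99), and 14 rose and 0 fell at the second (median 0.47), against the same 28.7% and 20.8% of all genes called higher. Dcdc2a, a microtubule-binding protein, had a mean of 3.19 ± 0.763 CPM in the early libraries, 119 ± 22.5 at intermediate, 296 ± 7.03 at full and 319 ± 2.46 in BEC (SD, n = 3). Tmem231, a transition zone membrane protein, went from 0.386 ± 0.236 to 31.0 ± 5.11 CPM between early and BEC. Xpnpep3, a mitochondrial peptidase, was lower in BEC than in early (log2 fold change -0.41, edgeR adjusted p 0.0203), and higher on total counts (0.45, edgeR adjusted p 0.0116). Of 14 genes of other mouse cystic models, 10 rose and 1 fell at the first step, where 25.7% of all genes were called lower, and 9 rose at the second. On total counts 13 rose and 0 fell at the first step and 10 rose at the second. Kif12, a kinesin, went from 0.313 ± 0.204 to 205 ± 14.3 CPM between early and BEC, and Dzip1l, a ciliary base protein, from 2.59 ± 0.773 to 103 ± 16.7 CPM (SD, n = 3).

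The next list holds genes of polycystic liver disease and of atypical dominant polycystic kidney disease that act in protein folding, glycosylation and translocation at the endoplasmic reticulum. Of 8 tested, 0 rose and 7 fell at the first step on the TMM scale (median -0.48), and 0 rose and 3 fell at the second, where 25.7% and 19.8% of all genes were called lower; on total counts 3 rose and 0 fell at the first step and 1 fell at the second. Sec61b, a subunit of the translocation channel, had 75.5 ± 5.88 CPM in early, 41.3 ± 1.32 at intermediate, 27.5 ± 0.862 at full and 28.5 ± 2.54 for BEC (SD, n = 3). Dnajb11, a chaperone needed for polycystin-1 maturation, went from 119 ± 12.7 CPM in early to 65.6 ± 7.24 in intermediate and 54.7 ± 1.63 in BEC. Among 5 tested relatives of the polycystins and fibrocystin, 2 rose and 0 fell at the first step (3 rose on total counts), where 28.7% of all genes were called higher, and 2 rose and 1 fell at the second (0 fell on total counts). Pkd1l1 had at most 2 counts in early libraries and reached 1.66 ± 0.287 CPM in BEC, at least 6.61-fold higher. Pkhd1l1, a paralog of Pkhd1, had 0.589 ± 0.682 CPM in early, 0.175 ± 0.115 in intermediate, 0.745 ± 0.261 at full and 2.62 ± 0.025 for BEC (SD, n = 3). It rose 4.15-fold from intermediate to full (edgeR adjusted p 0.0403) and 3.50-fold from full to BEC (edgeR adjusted p 0.0310). Pkhd1l1 had only 1 to 15 counts in early libraries, 1 to 5 in intermediate and 12 to 23 in full, so these folds rest on few counts. Pkdrej, a polycystin relative, was lower in BEC than in early (0.140 ± 0.123 against 2.02 ± 0.799 CPM, SD, n = 3).

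**Figure D5:**
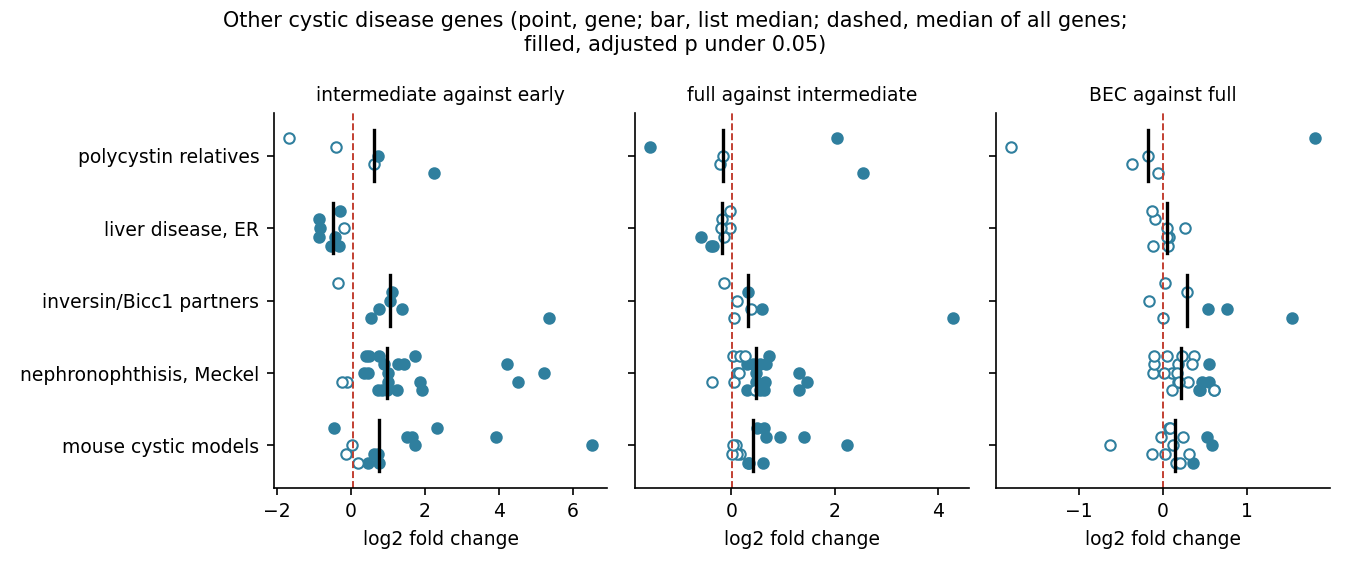
Log2 fold change of each tested gene of the 5 lists at the 3 successive steps; black bars are list medians, the dashed line the median of all genes, and filled points have an adjusted p under 0.05 in edgeR's quasi-likelihood test. At the first step 20 of 22 nephronophthisis and Meckel genes lie to the right and 7 of 8 endoplasmic reticulum genes to the left as called genes.

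Markers of other cell types moved with the groups as well. The summed level of 8 macrophage markers was 22.5 to 23.5 CPM in early, 29.5 to 34.2 in intermediate, 64.7 to 87.3 in full and 131 to 146 in BEC, of which Csf1r held a mean of 3.94, 24.6, 67.8 and 127. The means of the other 7 summed to 19.2 CPM in early, 7.42 in intermediate, 8.17 in full and 14.4 in BEC, with Cd68 at 12.3 to 16.3 CPM in early and at a mean of 2.74, 1.62 and 3.46 in the later groups. That of 8 stellate cell and fibroblast markers was 112 to 329 CPM in early and 64.2 to 109 in BEC, and that of 7 endothelial markers 13.8 to 22.3 and 1.73 to 6.63 CPM. B cell, T and NK cell and neutrophil markers summed to at most 0.419 CPM in any library. The summed level of 10 cell cycle genes was 35.6 to 128 CPM in early, 13.0 to 29.2 in intermediate, 209 to 304 in full and 235 to 330 in BEC. Of 10 hepatocyte markers, the sum fell from 105326 to 108382 CPM in early to 2121 to 2790 in BEC, with 0 of the 10 at the floor in any group. The part of these cells in the members' levels was not tested.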

How the data were processed

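The data are bulk RNA-seq of cells sorted from mouse liver, with 12 libraries in 4 groups of 3 as the sample labels give them. The authors deposited raw counts per gene symbol; STAR 2.7.10b, featureCounts 2.0.1, DESeq2 and the build GRCm39 are named in the submitters' processing notes, while the annotation, the strand setting and the handling of shared reads are not given in the sources used here. The authors also deposited a signal table, which holds the same counts divided by 1 median-of-ratios factor per library (0.623 to 1.33) and was not tested separately. The tests used R 4.3.3, edgeR 4.0.16 and, as an alternative, DESeq2 1.42.0 (limma 3.58.1 is loaded by edgeR), and figures Python 3.11.15 with matplotlib 3.10.9.

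Genes were kept by filterByExpr, counts scaled by TMM, and all 12 libraries fitted with a term per group by edgeR's quasi-likelihood test. A gene was called when its p, adjusted by Benjamini-Hochberg over 16210 genes, was under 0.05. SEs were derived from the F statistic, and intervals are 95%. CPM uses TMM-scaled library sizes; log2 CPM for shares and correlations has a prior count of 2. At most 3 counts in every library of a group was the floor (0.128 to 0.273 CPM), which covers counting error only. Lengths are joined exons of GENCODE M21 (GRCm38), a build other than that of the counts. Same-numbered libraries deviated together across genes with r of 0.121 to 0.293, 0.137 to 0.322 and 0.170 to 0.257 at the 3 steps; the labels share numbers without saying what they mark. The procedure was tested on simulated data in which a small part of the genes changed, equally up and down. In these data 54.4% of the genes were called at the first step, so the simulation is no check of the scaling. The members, lists and tests were chosen with earlier results of these data known. Named genes were the members, the genes most like each, and up to 2 per list and direction with the largest change between BEC and early; Tsc2 was named in any case, and some genes that the rule would name are not reported here.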

Additional observations from a re-analysis of the deposited data

How the results depend on the processing

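The counts of members called at the first 2 steps, against early and over all 4 groups stayed within 1.5 times under DESeq2, other scaling, other filters, the replicate block, fits of 6 libraries and fits without 1 library. Between BEC and full, where 1 was called, 3 were called with no filter on low counts, with the replicate block and with the 6 libraries of the 2 groups (Pkd1 and Nek8 lower, Pkhd1 higher in each), and between 1 and 3 without 1 library; the cause was not tested. The replicate block changed no other call of a member. Total counts turned Invs in BEC against early (0.81, edgeR adjusted p 0.000516, from -0.06). Without 1 library, Invs ran from -0.069 to 0.20 in full against intermediate and from -0.14 to 0.032 in BEC against early, Pkd1 from -0.014 to 0.16 in BEC against intermediate, and the log2 difference of the Pkd1 to Pkd2 ratio from -0.15 to 0.074 in full against intermediate, none called. On total counts the share of the change was 1.05 for Pkd2 in full, 0.889 for Bicc1 in intermediate and 1.03 for Bicc1 in full. Without 1 library the shares in full ran from 1.06 to 1.08 for Pkd2 and from 1.03 to 1.06 for Bicc1. Genes at a few counts, such as Pkd1l1 and Nphp4 in early cells and Pkhd1l1 in intermediate cells, are limited by depth.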
